A study of Mus musculus with 2 samples.

Results

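Myeloperoxidase and 5 further genes of the primary (azurophil) granules and their precursor cells were examined in mouse hematopoietic stem cells (HSC), which were profiled on 2 Affymetrix 3′ expression arrays. The 6 genes were Mpo, Elane, Prtn3, Ctsg, Ms4a3 and Cst7, out of 18194 genes named by the platform annotation. They were taken by symbol, and the annotation held exactly 1 probe set for each, which named no other gene. One array carried RNA of HSC labelled Sirt6 knockout and one carried RNA of wild type HSC, both from animals aged 3 months. The sources used here do not say how the Sirt6 allele was disrupted, how the HSC were sorted or whether animals were pooled.

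Primary granules are the first granules a developing granulocyte makes, at the promyelocyte stage, and they store myeloperoxidase and serine proteases. Transcripts for these proteins appear when progenitors enter the granulocyte and monocyte branch, before the genes of the later secondary and tertiary granules come on. In that branch PU.1 (encoded by Spi1, a factor of the ETS family), C/EBP factors, Runx1 and Myb are known activators of primary granule promoters.

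The upstream sequences of the 6 genes are shown because these factors are described for primary granule promoters. Another reason was that the genes lay on the same side of the comparison. Whether any of these factors acts on the 6 genes was not tested. Each line gives the 250 bases before the RefSeq start of the gene (build GRCm38.p6), read 5′ to 3′ on the strand of the gene. Capitals mark matches to GGAAGT, an extended form of the core of the ETS motif. The shorter core GGAA also occurs elsewhere in these sequences and is not marked.
Mpo, chr11:87793534-87793783, plus strand: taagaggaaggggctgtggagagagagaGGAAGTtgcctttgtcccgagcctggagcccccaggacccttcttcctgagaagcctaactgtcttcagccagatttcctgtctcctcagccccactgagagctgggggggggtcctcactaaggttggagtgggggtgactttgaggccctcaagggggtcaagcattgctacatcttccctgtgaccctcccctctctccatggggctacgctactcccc
Elane, chr10:79886062-79886311, plus strand: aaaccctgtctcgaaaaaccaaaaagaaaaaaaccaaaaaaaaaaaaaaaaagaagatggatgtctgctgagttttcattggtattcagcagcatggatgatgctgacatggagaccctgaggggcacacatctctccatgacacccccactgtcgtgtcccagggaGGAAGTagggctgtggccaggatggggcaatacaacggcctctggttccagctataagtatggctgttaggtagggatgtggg
Prtn3, chr10:79879417-79879666, plus strand: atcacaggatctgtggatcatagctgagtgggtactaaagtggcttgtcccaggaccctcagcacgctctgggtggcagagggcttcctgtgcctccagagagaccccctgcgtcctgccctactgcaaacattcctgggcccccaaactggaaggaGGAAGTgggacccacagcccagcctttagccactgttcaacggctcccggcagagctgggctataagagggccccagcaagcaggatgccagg
Ctsg, chr14:56102575-56102824, minus strand: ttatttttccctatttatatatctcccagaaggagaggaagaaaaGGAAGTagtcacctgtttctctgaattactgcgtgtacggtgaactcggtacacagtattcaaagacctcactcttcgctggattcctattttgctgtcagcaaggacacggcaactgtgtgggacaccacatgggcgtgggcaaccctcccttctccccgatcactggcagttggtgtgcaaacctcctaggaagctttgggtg
Ms4a3, chr19:11640852-11641101, minus strand: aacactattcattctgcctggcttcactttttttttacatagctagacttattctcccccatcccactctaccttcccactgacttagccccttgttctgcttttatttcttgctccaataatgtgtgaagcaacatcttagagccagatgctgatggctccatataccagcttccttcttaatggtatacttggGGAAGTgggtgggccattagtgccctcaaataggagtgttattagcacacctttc
Cst7, chr2:150570165-150570414, plus strand: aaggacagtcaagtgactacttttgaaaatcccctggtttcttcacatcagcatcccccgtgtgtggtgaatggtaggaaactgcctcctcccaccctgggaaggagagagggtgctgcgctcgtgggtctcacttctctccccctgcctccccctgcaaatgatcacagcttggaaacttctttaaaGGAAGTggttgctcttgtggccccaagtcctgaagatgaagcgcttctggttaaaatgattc

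All 6 upstream sequences held GGAAGT, 1 copy each and always on the strand of the gene. The first base of the match lay 55 bases before the start in Ms4a3, 62 in Cst7, 83 in Elane, 93 in Prtn3, 205 in Ctsg and 222 in Mpo. Among 27018 upstream sequences of the same length in the RefSeq table, 20.0% held this motif on either strand. This motif was settled on after the letters of the 6 sequences had been read, so its presence in all 6 was known beforehand. The 20.0% is therefore a description and gives no independent support. Another 3 patterns were searched on both strands. The Myb pattern AACNG occurred in 5 of 6 genes, all but Ms4a3, against 74.2% of all upstream sequences. The C/EBP pattern TTNCNNAA occurred in Ms4a3 and Cst7 (36.9% of all sequences), and the one in Ms4a3 overlapped its GGAAGT. The Runx pattern TGNGGT occurred in Ctsg and Cst7 (39.9% of all sequences). A match is a description of letters and was not tested as a binding site.

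**Figure D1:**
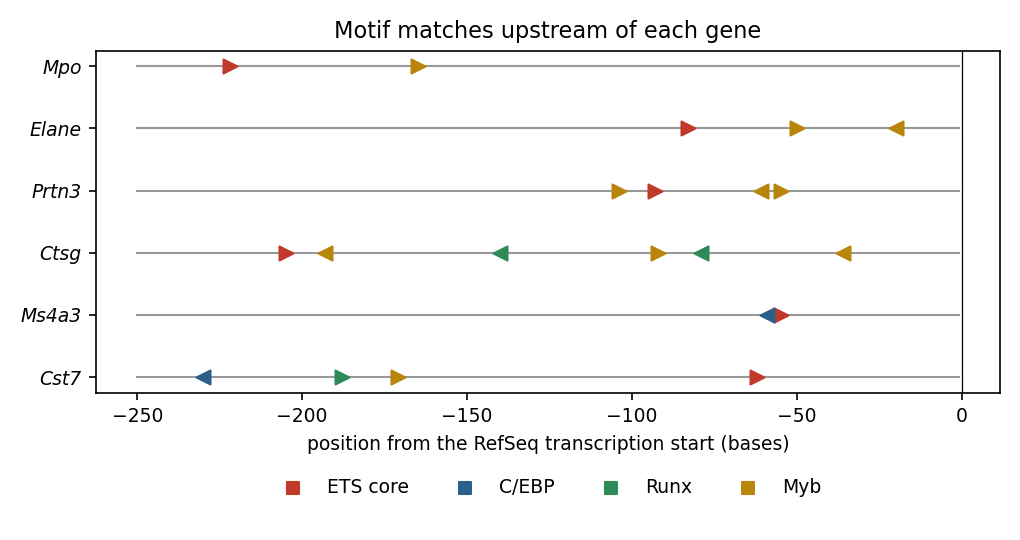
Matches to 4 short motifs in the 250 bases upstream of each gene. The x axis is the distance from the RefSeq transcription start in bases, each row is a gene, and triangles point right for the strand of the gene and left for the opposite strand. GGAAGT, in red and labelled ETS core, appears once in each row, between 222 and 55 bases before the start.

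The values are MAS5 signals, an estimate of brightness per probe set on a linear scale, and ratios are given on the log2 scale as the array labelled knockout over the wild-type array. The median signal over 45037 probe sets was 60.7 in HSC labelled knockout, against 60.8 in wild-type HSC. A gene counted as measured when its probe set exceeded a floor of 60.5 on at least 1 array, which left 11547 genes with a median log2 ratio of 0.0023. With 1 array per genotype no test, SD or p-value was possible, and genes were described by fixed sizes of 1.5-fold and 2-fold. The only error available was technical, an SD of 0.22 on the log2 scale among the ratios that several probe sets gave for one gene (4632 genes), or 0.16 among probe sets with a mean signal of 500 or more (1096 genes). Counts over lists use the brightest probe set of each gene, and other measured probe sets of a gene named here are given where they lie on the other side of 1.5-fold or of no change. The probe set of Sirt6 itself read 174 in HSC labelled knockout, against 124 in wild-type HSC, so the target was not lower there. The sources used here do not place it relative to the disrupted part of the gene, and every direction below rests on the label.

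All 6 primary granule genes were higher on the array labelled knockout. Their folds ran from 1.29 for Prtn3 to 2.54 for Cst7, with a median log2 ratio of 0.73 (1.65-fold). The 6 genes were chosen with earlier results of these data known, so the shares set beside them are a description and no independent support. Of the 6, 4 were at least 1.5-fold higher, against 1.71% of all measured genes, and 2 were at least 2-fold higher, against 0.398%. None was at least 1.5-fold lower, a size that 2.63% of measured genes reached. All 6 had a mean signal of 500 or more, and among the 4378 measured genes that bright the shares were smaller, 1.03% at least 1.5-fold and 0.228% at least 2-fold higher. In bulk RNA, more cells of a type and more RNA per cell cannot be told apart.

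**Figure D2:**
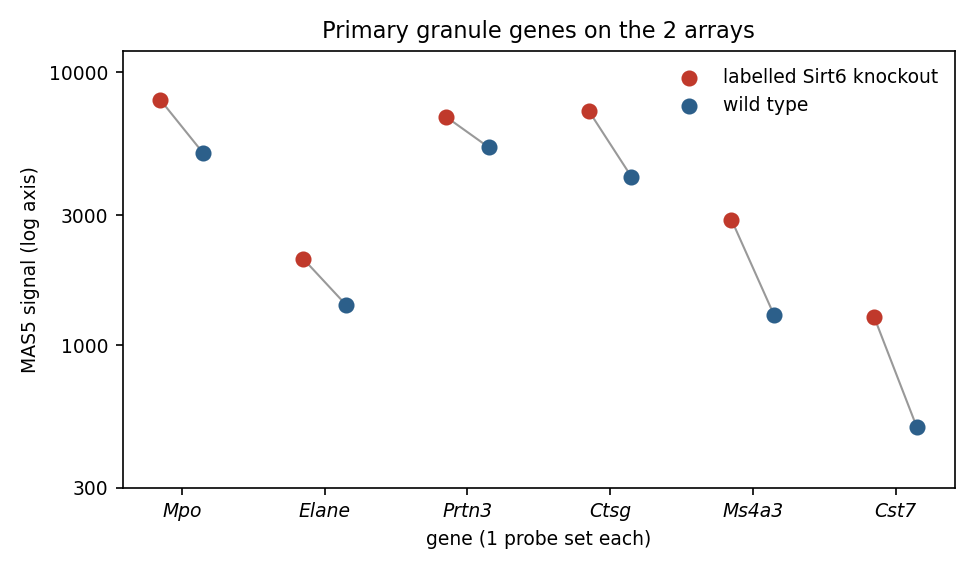
MAS5 signal (log axis) of the single probe set of each primary granule gene, with the array labelled Sirt6 knockout on the left of each pair, in red, and the wild-type array on the right, in blue; there is 1 array per genotype and no error bar. The red point is above the blue one in all 6 pairs, with the widest gap for Cst7 and the narrowest for Prtn3.

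Mpo, which makes hypochlorous acid from hydrogen peroxide and chloride, read 7914 in HSC labelled knockout, against 5051 in wild-type HSC. The difference was 1.57-fold (log2 0.65), and 98.7% of measured genes had a lower ratio. The signal was 131 times the floor in HSC labelled knockout, against 83.5 times in wild-type HSC.

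The 3 serine proteases of the granule were higher by different sizes. Ctsg, cathepsin G, a protease with chymotrypsin-like specificity, read 7235 in HSC labelled knockout, against 4141 in wild-type HSC (1.75-fold, log2 0.80). Elane, neutrophil elastase, read 2073 in HSC labelled knockout, against 1406 in wild-type HSC, which at 1.48-fold (log2 0.56) was just short of the 1.5-fold size. Prtn3, proteinase 3, is the nearest protein-coding neighbour of Elane on chromosome 10. It read 6875 in HSC labelled knockout, against 5312 in wild-type HSC, 1.29-fold (log2 0.37), the smallest difference of the 6. It was still above the ratio of 94.7% of measured genes. The log2 ratios of these neighbouring genes were thus 0.37 and 0.56. The technical SD (0.16 among bright probe sets, 0.22 over all genes) is that of single ratios on the same arrays. It does not measure a gap between genes, and the gap was not tested.

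The 2 members that are not enzymes of the granule showed the largest differences. Ms4a3, a membrane protein of the CD20 family that marks granulocyte-monocyte progenitors, read 2887 in HSC labelled knockout, against 1286 in wild-type HSC (2.24-fold, log2 1.17). Cst7, cystatin F, an inhibitor of cysteine cathepsins, read 1269 in HSC labelled knockout, against 499 in wild-type HSC (2.54-fold, log2 1.35). Ranked by ratio from the highest, Cst7 was number 13 and Ms4a3 number 27 of the 11547 measured genes, with Ctsg at 87, Mpo at 148, Elane at 220 and Prtn3 at 613. From lowest to highest the log2 ratios of the members spanned 0.97. The technical SD of 0.22, or 0.16 among bright probe sets, is that of a single ratio and does not measure such a span.

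**Figure D3:**
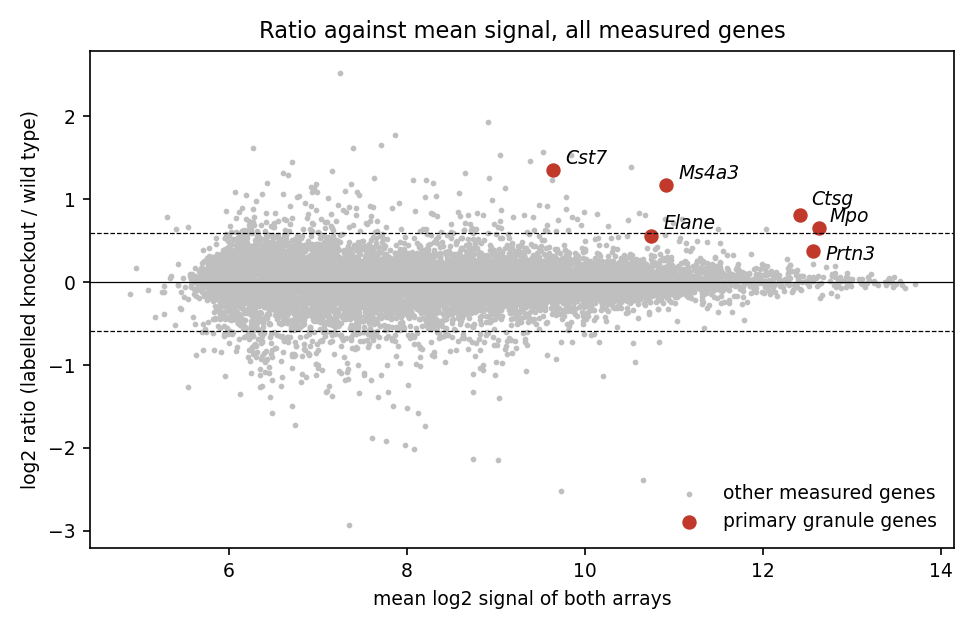
Log2 ratio of the array labelled knockout over the wild-type array (y axis) against the mean log2 signal of both arrays (x axis) for 11547 measured genes, 1 point per gene, with the primary granule genes in red and dashed lines at 1.5-fold. Elane and Prtn3 lie under the upper line, and Mpo, Ctsg, Ms4a3 and Cst7 above it.

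The genes that process, pack or accompany these proteins, where measured, stayed under 1.5-fold. Of 17 listed, 13 were measured, 0 were at least 1.5-fold higher or lower, and their median log2 ratio was 0.06. Srgn, serglycin, the proteoglycan core that retains the proteases in the granule, read 8139 in HSC labelled knockout, against 7576 in wild-type HSC (log2 0.10). Ctsc, cathepsin C, which cuts the propeptide from Elane, Prtn3 and Ctsg, read 1299 in labelled knockout against 1308 in wild type (log2 -0.01), while its other 2 measured probe sets gave -0.34 and -0.16. Calr, calreticulin, a chaperone of Mpo folding, had a log2 ratio of 0.28 (0.31 and 0.33 on its other measured probe sets). The lysosomal hydrolases Gusb and Man2b1 each stood at 0.31, although a second probe set of Gusb gave -0.13, and lysozyme (Lyz2) at -0.09.

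Cystatin F acts on cysteine cathepsins. In a list of these that also held legumain, which is not a cathepsin, 7 genes were measured. Of the 7, 2 were at least 1.5-fold lower and 0 higher. Ctsh read 125 in HSC labelled knockout, against 269 in wild-type HSC (log2 -1.10, and -1.05 on its second probe set). Lgmn, legumain, read 63.9 in labelled knockout, close to the floor, against 114 in wild type (log2 -0.83). Ctsz had a ratio of 0.32 and Ctsb of -0.07, and the list had a median of -0.01. Of 5 measured inhibitors of the granule proteases and cathepsins, 0 passed 1.5-fold in either direction (median 0.08). Among them were Slpi, secretory leukocyte protease inhibitor (0.38), Serpinb6a (-0.41), Serpinb1a, an inhibitor of elastase, proteinase 3 and cathepsin G (0.24), and Cst3, cystatin C (0.08).

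Of 9 measured transcription factors of the granulocyte and monocyte branch, 1 was at least 1.5-fold higher, 1 lower and 7 lay between, with a median log2 ratio of 0.34. Cebpa, the C/EBP factor needed to form granulocyte-monocyte progenitors, read 412 in HSC labelled knockout, against 176 in wild-type HSC (2.35-fold, log2 1.23). Runx1 read 414 in labelled knockout against 756 in wild type (log2 -0.87), but its other 4 measured probe sets ran from -0.16 to 0.28. Irf8 stood at 0.46 and Myb at 0.17. Spi1, which encodes PU.1, was named after its values were seen, with 475 in HSC labelled knockout, against 376 in wild-type HSC (log2 0.34). Of 5 myeloid growth factor receptor genes 2 reached 1.5-fold higher and 0 lower (median 0.45). They were Csf2rb (2169 in HSC labelled knockout, against 1241 in wild-type HSC, log2 0.81) and its paralog Csf2rb2 (0.71). Csf1r stood at 0.45 on its brightest probe set and past 1.5-fold on its other 2 measured probe sets (0.69 and 0.76), so that 3 of the 5 receptors would count by those.

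Relatives of the members were mostly dim. Of 12 related serine protease genes with a probe set, 4 were measured. Mcpt8, a basophil protease and the neighbour of Ctsg on chromosome 14, read 813 in HSC labelled knockout, against 369 in wild-type HSC (log2 1.14). Gzmb, granzyme B, read 514 in labelled knockout against 285 in wild type (0.85). Cma1, a mast cell chymase, read 76.8 in labelled knockout against 142 in wild type (-0.89). The peroxidase relatives of Mpo with a probe set, Epx, Lpo and Pxdn, were under the floor on both arrays. Of 11 related Ms4a genes 5 were measured, all with positive ratios and 1 at least 1.5-fold higher. Ms4a6c stood at 0.63, Ms4a6b at 0.41 and Ms4a4c at 0.40. Among the 5 was Ms4a4b, named after its values were seen, with 79.6 in labelled knockout against 51.4 in wild type, under the floor. It was measured through the array labelled knockout alone, so its ratio could only be positive.

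The list of later granule genes also held genes of proteins found outside the granules, such as S100a8 and Padi4. Most genes of this list differed in the same direction as the primary granule genes. Of 11 measured, 9 were at least 1.5-fold higher and 1 lower. Their median log2 ratio of 0.76 lay beside the 0.73 of the primary granule genes. Among the 9 was Cd177, named after its values were seen, with 103 in labelled knockout against 44.5 in wild type, under the floor. It was measured through the array labelled knockout alone, so it could not have counted as lower. Lcn2, lipocalin 2, read 751 in HSC labelled knockout, against 314 in wild-type HSC (log2 1.26). The log2 ratios of Chil3, Ngp and S100a8 were 0.93, 0.84 and 0.63. S100a8, a calcium-binding protein of the neutrophil cytosol, read 3584 in labelled knockout against 2308 in wild type. The exception was Padi4, a peptidylarginine deiminase, with 447 in labelled knockout against 715 in wild type (-0.68), named after its values were seen. Mmp9, also named afterwards, counted among the 9 with 0.63 on its brightest probe set and gave 0.32 on its other one. Whether the granule classes differ from each other was not tested.

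**Figure D4:**
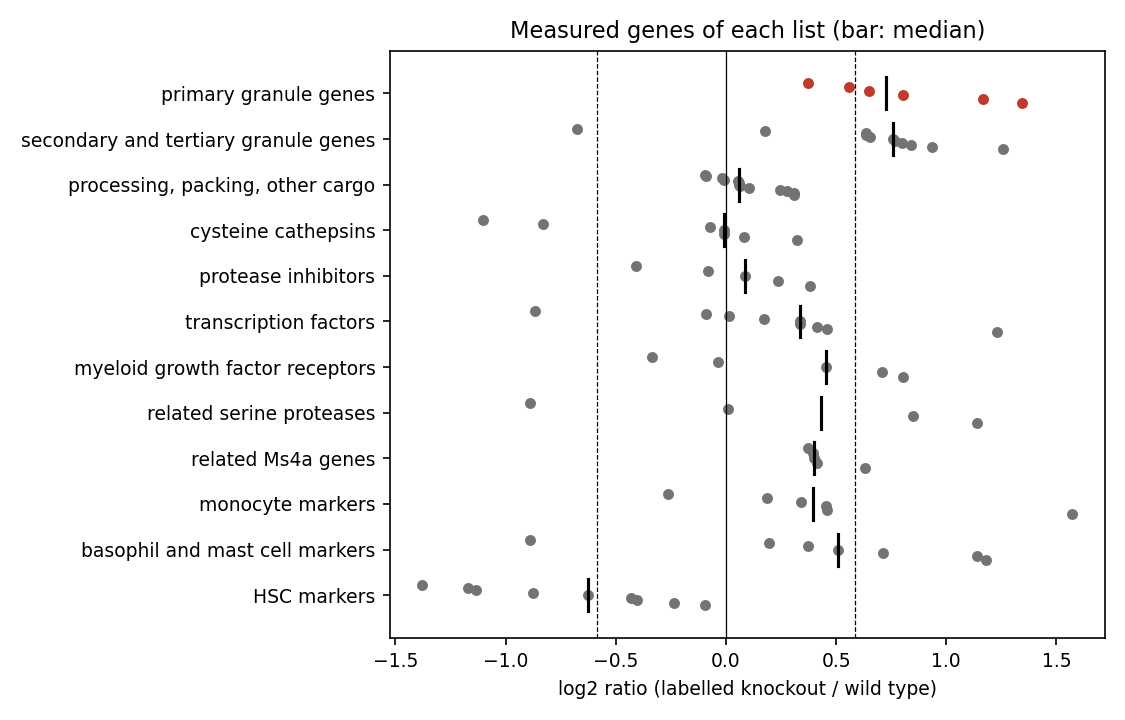
Log2 ratio of the array labelled knockout over the wild-type array (x axis) for every measured gene, 1 point per gene (its brightest probe set), in 12 gene lists (rows), with a bar at the median and dashed lines at 1.5-fold. The points of the primary granule genes, in red, lie between 0.37 and 1.35, while the 13 genes of processing, packing and other cargo stay inside the dashed lines and the 9 HSC markers lie below 0 on their brightest probe sets.

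Markers of other cell types differed in both directions, and their part in the difference of the granule genes was not tested. All measured genes of the HSC marker list, Hlf, Mecom, Meis1, Procr and Hoxa9 among them, were above the floor on both arrays. HSC markers were lower on the array labelled knockout, 5 of 9 measured by at least 1.5-fold and 0 higher (median -0.63). Meis1 was not among the 5, with a log2 ratio of -0.43 on its brightest probe set and of -0.74 and 0.40 on its other 2, so its direction depended on the probe set. Their summed signal was 5470 in HSC labelled knockout, against 8378 in wild-type HSC. Hlf read 795 in labelled knockout against 1742 in wild type (log2 -1.13), and Fgd5 read 88.5 in labelled knockout against 230 in wild type (-1.38). The ratio of Mllt3 was -1.17 and that of Hoxa9 -0.23. Monocyte markers summed to 3090 in HSC labelled knockout, against 1853 in wild-type HSC. Of 6 measured, 1 was at least 1.5-fold higher, F13a1 (1273 in labelled knockout against 428 in wild type, log2 1.57). Csf1r, also in this list, would be a second one by its other probe sets. Cd14 was under the floor on both arrays.

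Basophil and mast cell markers summed to 5332 in HSC labelled knockout, against 4059 in wild-type HSC. Most of each sum came from Gata2, with 2964 in labelled knockout against 2588 in wild type. Of 7 measured, 3 were at least 1.5-fold higher and 1 lower. Mcpt8 and Fcer1a (log2 1.18) were among the higher ones and Cma1 was the lower one, while Gata2 stood at 0.20 with -0.23 on its second probe set. The eosinophil markers Siglecf (1.14) and Prg2 (0.81) were higher, and Epx, Il5ra and Prg3 were under the floor on both arrays. Of 5 measured B cell markers 2 were at least 1.5-fold higher, Vpreb1 (1.78) and Igll1 (1.62), next to Cd79b (0.15) and Cd79a, which was at least 1.45-fold higher against the floor. Megakaryocyte markers went both ways, with Itga2b at 0.88, Vwf at -0.87 and Pf4 at -0.76. The 4 measured erythroid markers had negative ratios, led by Car1 (-1.96), with Klf1 at -0.17 and Hba-a2 at -0.12. Of the T cell markers, Cd3d, Cd3e, Cd3g and Cd4 did not reach the floor on either array, and Cd8a stood at 0.22.

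The genes nearest to the median profile of the 6 members, by Euclidean distance over the log2 signals of the 2 arrays, were S100a8 (distance 0.32), Lgals1 (0.38), Arhgdib (0.40), Pisd-ps3 (0.41) and D17H6S56E-5 (0.41). Their log2 ratios were 0.63, 0.46, 0.32, 0.37 and 0.32 in that order. The distance takes in the brightness of the probe sets as well as the ratio, and 2 arrays are too few to define a pattern.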

How the data were processed

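Total RNA was hybridised to 1 array per genotype, and the deposited table holds linear signal intensities, 1 per probe set, made by the authors with MAS5 per the submitters' processing notes. The sources used here give no scaling target, software version or detection calls. The platform annotation supplied gene names: of 45037 probe sets, 34945 named 1 gene, 932 several and 9160 none. Genes were matched through Entrez identifiers, and each gene was read from its brightest probe set by mean log2 signal. The floor was the median over probe sets of the mean log2 signal (5.92), and a lower value was raised to it, which makes a ratio a bound. Named genes were all 6 members, Sirt6, the 5 nearest profiles and, per list, the 3 measured genes with the largest ratio in size and the one with the highest signal. Outside this rule, Ctsc, Lyz2, Spi1, Padi4, Mmp9, Cd177, Ms4a4b, Procr, Mecom, Meis1, the genes under the floor and the chromosomal neighbours were named after their values were seen. Members and lists were chosen with earlier results of these data known. The number of arrays limits the precision. Alternatives changed the scaling, the floor and the choice of probe sets. Upstream sequences and neighbouring genes came from RefSeq tables (GRCm38.p6), where all 6 members matched; where a gene had several starts the first listed was used. Python 3.11.15, numpy 2.4.6, pandas 2.3.3, statsmodels 0.14.6 and matplotlib 3.10.9 were used.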

Additional observations from a re-analysis of the deposited data

How the results depend on the processing

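Under 10 alternatives (quantile normalization, median centring, loess, a floor at percentile 25, at percentile 75 or none, the floor added as a pseudocount, medians over the probe sets of each gene, omission of _x_at and _s_at probe sets, and genes of mean signal 500 or more, the last chosen after seeing the data) all 6 members stayed higher on the array labelled knockout. The counts of members at least 1.5-fold and 2-fold higher were 4 and 2 in each of them. Of the 10, 6 could not alter the values of the members, which have 1 probe set each far above the floor: the 3 other floors, the medians over probe sets, the omission of probe sets and the signal minimum. The scaling choices and the pseudocount could. The members' median log2 ratio ran from 0.70 to 0.73, Cst7 from 1.25 to 1.36 and Prtn3 from 0.35 to 0.37. The share of all measured genes that served as background moved more. The share at least 1.5-fold higher was 1.71% as reported, 2.98% after lowering the floor to percentile 25, 5.42% without one, 0.627% with the pseudocount and 1.03% among the brighter genes. The share at least 2-fold higher was 0.398% as reported, 0.194% after raising the floor to percentile 75, 1.0% without one, 0.110% with the pseudocount and 0.228% among the brighter genes. No paired analysis was possible because each genotype had 1 array, and for the same reason no array could be left out.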

Other observations

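The protein-coding genes that flank the members, 3 on each side in the RefSeq order, were looked at after the values of the members had been seen. Of 30 such neighbours that are not members, 24 had a probe set and 12 were measured. All 12 had a positive log2 ratio (11 of 12 after loess scaling), with a median of 0.28, against 50.4% positive ratios among all measured genes, and 2 of them were at least 1.5-fold higher. These were Mcpt8, beside Ctsg, and Acss1, a mitochondrial acetyl-CoA synthetase that lies second from Cst7. Acss1 read 497 in HSC labelled knockout, against 322 in wild-type HSC (log2 0.63), while Apmap, between it and Cst7, stood at 0.15. Around the pair of Prtn3 and Elane, the splicing repressor gene Ptbp1 stood at 0.41, Plppr3 at 0.19, Med16 at 0.16 and R3hdm4 at 0.12. Near Mpo, Tspoap1 stood at 0.50 and Mks1 at 0.0023. Several of the 12 ratios were smaller than the technical SD of 0.22, and no test of the neighbours as a group was made.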
